A study of Mus musculus with 10 samples.

Results

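The nuclear RNA of 9 genes that encode Polycomb subunits, Ezh1, Ezh2, Eed, Suz12, Jarid2, Mtf2, Phf19, Cbx2 and Cbx7, was followed through 5 stages of blood formation from mouse ES cells. The genes were taken by name from the 15686 genes of the deposited expression matrix, and the rule that takes them uses no measured value. The names themselves were chosen with earlier results of these data known. All 9 had a row among the 55487 genes of the count tables, and all 9 were among the 22596 genes that passed a filter on low counts.

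All libraries came from HM-1, 1 mouse ES cell line, and the labels name no further genetic change or drug in any stage. The ES stage was the undifferentiated culture, and the later stages were reached by in vitro differentiation in serum. The HB stage (hemangioblast) was the FLK1+ fraction of embryoid bodies after 3 d. After another 2.5 d of blast culture, KIT+ cells were sorted into HE1 (hemogenic endothelium 1, TIE2+ CD41-), HE2 (hemogenic endothelium 2, TIE2+ CD41+) and HP (hematopoietic progenitor, TIE2- CD41+) cells, with 2 libraries in each of the 5 stages. By the paper's methods, ES cells were grown with LIF, and embryoid bodies in a medium listed without it. The medium of the blast culture held VEGF, IL6 and conditioned medium. Between ES, HB and the later stages, stage, days of culture, medium and sort change together and cannot be told apart. HE1, HE2 and HP share their days of culture and medium and differ by sort. ES cells were not sorted. The labels number the libraries of a stage without naming separate cultures, so the p-values measure the spread between these libraries. For the expression of Mecom in these 5 cell types, the paper describes its 2 replicates as biologically independent.

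Polycomb proteins keep developmental genes silent. PRC2 is the complex that writes H3K27me3, with EZH1 or EZH2 as its catalytic subunit on a core of EED and SUZ12. Its accessory subunits define alternative forms, one with a Polycomb-like protein (MTF2, PHF19 or PHF1) and one with JARID2, and these help PRC2 to reach its targets. Canonical PRC1 reads the mark through a CBX protein with a chromodomain, of which CBX7 is the main form in ES cells. In the blood system EZH2 is best known from dividing progenitors and EZH1 from cells that divide less, and exchange of CBX7 for CBX2 and other CBX proteins has been described when ES cells leave pluripotency.

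A library held between 24920434 and 58782055 counts, and the log2 CPM (counts scaled to a common library size) of 2 libraries of a stage correlated across genes with r from 0.967 in HE1 to 0.994 in ES. The ES and blood markers followed the labels: the summed CPM of Pou5f1, Nanog, Zfp42 and Esrrb was 1650 and 1580 in ES, and that of Itga2b, Runx1, Spi1 and Gfi1b was 1090 and 895 in HP against 288 and 191 in HE1. The sum for Kdr, Etv2, T and Mesp1 was 1240 and 1550 in HB against 7.68 and 8.66 in ES, with 1270 and 728 in HE1. Kdr, with 957 and 1280 CPM in HB and 1270 and 718 in HE1, made up most of it, and the other 3 genes each fell from HB to HE1. The sum for Tek, Cdh5, Pecam1 and Kit, listed as endothelial, was 2890 and 1660 in HE1 against 781 and 711 in HP. Kit went the other way, with 146 and 73.0 CPM in HE1 against 363 and 251 in HP, whereas Tek, Cdh5 and Pecam1 fell. HE1 replicate 2 stood apart from HE1 replicate 1. All 4 ES markers were higher in it, with a sum of 57.7 CPM against 5.59, which is 3.57% of the ES mean against 0.346%. The HB libraries held 5.67% and 4.48% of the ES mean, and the part of this in the falls from HB to HE1 of genes that were high in ES, such as Jarid2, Mtf2 and Epop, was not tested. Its 4 cardiac genes summed to 90.9 CPM against 24.9, its 5 mesenchymal genes to 1440 against 786, and its 17 cell cycle genes to 2500 against 3450. Itga2b, which encodes CD41, had 227 and 127 CPM in HE1, sorted as CD41-, against 505 and 469 in HE2. The HE2 libraries also differed, with 862 CPM of Cdh5 and 285 of Tek in replicate 1 against 412 and 159 in replicate 2, and with less blood marker RNA in replicate 1 (a sum of 861 against 1120, and 26.4 against 65.9 for Spi1). The mesenchymal genes summed to 77.2 and 87.1 CPM in ES and to 101 in HB replicate 1, with replicate 2 close to it. In the 6 HE1, HE2 and HP libraries they summed to 628 to 1440, with 1230 in HP replicate 1 and 628 in HP replicate 2. Of the 5 genes, 4 rose from HB to HE1 and all 5 from ES to HP, where 17.5% and 24.1% of all tested genes were called higher. Macrophage markers summed to at most 29.0 CPM in any library, with 1.77 and 3.53 in HE1 against 29.0 and 24.4 in HP. The part of these differences between libraries in the results below was not tested beyond leaving a library out. That of the mesenchymal genes in the changes from HB to HE1 and from ES to HP was not tested. Nor was that of the macrophage markers in the changes from HE1 to HP and from ES to HP. In bulk RNA, fewer cells of a type and less RNA per cell cannot be told apart.

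All 9 genes depended on stage in edgeR's quasi-likelihood test over the 5 stages, which called 66.7% of all tested genes at an adjusted p under 0.05. The counts were highest at the first 2 steps, of the 4 between neighbouring stages, for the 9 genes as for all genes. Of the 9 genes, 2 rose (Ezh1 and Cbx2) and 5 fell (Eed, Jarid2, Mtf2, Phf19 and Cbx7) from ES to HB, where 17.8% of tested genes were called higher and 22.6% lower. From HB to HE1, 5 fell (Ezh2, Suz12, Jarid2, Mtf2 and Cbx2) and none rose, against 17.5% of genes called higher and 14.8% lower. From HE1 to HE2, 2 fell (Ezh1 and Cbx7) and none rose, against 6.12% higher and 7.12% lower. The shares here and below are over the 22596 tested genes, whereas the 9 genes came from the 15686 of the deposited matrix. Calls were more frequent among the latter. From ES to HB, limma-voom called 3963 of the 15686 higher and 4501 lower, against 4141 and 5547 of the 22596.

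From HE2 to HP edgeR called 0 of the 9 genes and 0 genes in all, so that the background was 0% in both directions, and limma-voom and DESeq2 also called 0 of the 9, with 66 and 465 calls over all genes. Without the filter on low counts, edgeR called 210 genes higher and 636 lower at this step, none of them among the 9. Without adjustment, 670 genes were higher and 1113 lower in edgeR at p under 0.05, and Ezh1 was the single one of the 9 genes among them. Between HE1 and HP, 2 genes rose (Ezh2 and Suz12) and 2 fell (Ezh1 and Cbx7), against 11% of genes called higher and 13.9% lower. Over the whole course from ES to HP, 5 genes fell (Eed, Jarid2, Mtf2, Phf19 and Cbx7) and none rose, against 24.1% higher and 27.5% lower. Without HE1 replicate 2, 4 of the 9 genes were called from HB to HE1, 1 from HE1 to HE2 and 1 from HE1 to HP. The median log2 fold change of the 9 genes from ES to HP was -1.09, and that of all tested genes was -0.01.

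**Figure D1:**
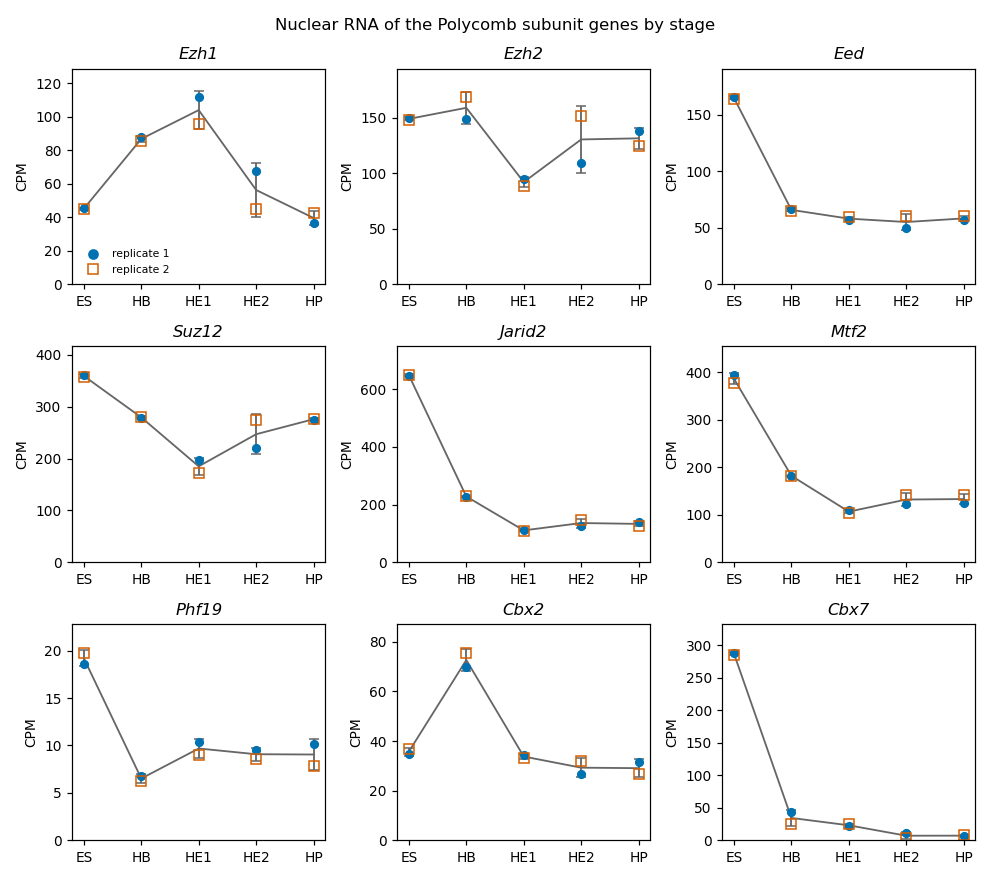
CPM (y axis, from 0, a different scale in each panel) of each subunit gene at the 5 stages (x axis), with filled circles for replicate 1, open squares for replicate 2, and the line and bars for the mean ± SD of 2 libraries. Eed, Jarid2, Mtf2, Phf19 and Cbx7 were highest in ES, Cbx2 had its peak in HB, and Ezh1 was highest in HE1, where Ezh2, Suz12, Jarid2 and Mtf2 were lowest.

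From HE1 to HP, Ezh1 fell and Ezh2 rose, the latter just inside the threshold, and at neither step next to HE1 were both called. Ezh1, on chromosome 11 at 101191115 to 101226463 of the minus strand (mm10), had 45.6 and 44.7 CPM in ES, 87.9 and 85.7 at HB, 112 and 96.0 at HE1, 67.7 and 44.9 at HE2, and 36.5 and 42.7 at HP. Its level was thus higher in all 4 HB and HE1 libraries than in the other 6. It rose 1.92-fold from ES to HB (log2 fold change 0.94 ± 0.19 SE, adjusted p = 0.00279 in edgeR) and had a further difference of 0.26 ± 0.19 (adjusted p = 0.316) from HB to HE1 that did not pass the test. Ezh1 then fell 1.84-fold from HE1 to HE2 (log2 fold change -0.88 ± 0.19, adjusted p = 0.0198) and was 2.62-fold lower in HP than in HE1 (adjusted p = 0.000926). The difference between ES and HP was not called (log2 fold change -0.19 ± 0.19, adjusted p = 0.431). The call from HE1 to HE2 rested on HE2 replicate 2, without which the log2 fold change was -0.60 and the adjusted p 0.155, the highest of a range from 0.000165 over 18 alternatives, and it was also lost with only the 4 libraries compared.

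Ezh2, on chromosome 6 at 47530139 to 47595341 of the minus strand, had 150 and 148 CPM in ES, 149 and 169 at HB, 95.1 and 89.0 at HE1, 109 and 152 at HE2, and 138 and 125 at HP. Both HE1 libraries were below the other 8. Ezh2 fell 1.73-fold from HB to HE1 (log2 fold change -0.79 ± 0.17, adjusted p = 0.006 in edgeR), and this call held in each of the 18 alternatives. From HE1 to HE2 the log2 fold change was 0.50 ± 0.17 (adjusted p = 0.0691), which passed in 3 of 18 alternatives (0.0137 to 0.469), DESeq2 and the fit without HE2 replicate 1 among them. The rise of 1.43-fold from HE1 to HP had an adjusted p of 0.0476, just inside the threshold, and was lost in 10 of 18 alternatives (0.0194 to 0.227). Leaving out any 1 library of ES, HB, HE1 or HP was enough, as was a replicate block (0.0684). Without HE1 replicate 2, the library with more ES marker and less cell cycle RNA, the log2 fold change was 0.47 and the adjusted p 0.171.

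Per kb of exon, the 2 genes had close levels in HE1. Ezh1 had 14.0 ± 1.48 CPM per kb there (SD, n = 2) and Ezh2 13.8 ± 0.641, whereas in ES the values were 6.07 ± 0.0836 for Ezh1 and 22.3 ± 0.157 for Ezh2. The share of Ezh1 in the sum of both was 21.5% and 21.3% in ES, 34.6% and 31.2% at HB, 51.3% and 49.2% at HE1, 35.8% and 21.0% at HE2, and 19.2% and 23.5% at HP. The sum itself changed less, from 25.0 CPM per kb in HP to 35.5 in HB. The log2 ratio of Ezh2 to Ezh1 ranged over 1.9 between stage means, from -0.01 in HE1 to 1.89 in HP, with 1.88 in ES. An exact permutation test of the ratio over all 945 partitions of the libraries into stages gave p = 0.0413, the same after adjustment over 4 ratios, where the smallest possible p is 0.00106. The HE1 libraries, at -0.08 and 0.05, were the lowest of the 10. With a library left out, p was above 0.05 in 7 of 10 cases, up to 0.104. The 2 HE2 libraries lay far apart, at 0.84 and 1.91.

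The core subunits Eed and Suz12 did not change alike. Eed, which encodes the subunit that binds H3K27me3 and stimulates the enzyme, lies on chromosome 7 at 89954654 to 89980983 (minus strand). It had 166 and 164 CPM in ES, 66.8 and 64.9 at HB, 57.0 and 59.2 at HE1, 50.2 and 60.0 at HE2, and 56.5 and 60.1 at HP. It fell once, 2.5-fold from ES to HB (log2 fold change -1.32 ± 0.14, adjusted p = 3.87e-05 in edgeR), and no later step was called. Suz12, the scaffold of the complex, lies on chromosome 11 at 79993106 to 80034123 (plus strand). Its values were 362 and 357 CPM in ES, 278 and 281 at HB, 197 and 173 at HE1, 220 and 274 at HE2, and 275 and 277 at HP. Both HE1 libraries were the lowest of the 10. Suz12 fell 1.51-fold from HB to HE1 (adjusted p = 0.0129) and rose 1.49-fold from HE1 to HP (adjusted p = 0.0187).

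The difference of Suz12 between ES and HB, -0.36 ± 0.15 on the log2 scale (adjusted p = 0.0759), missed the threshold in the reported fit and passed it in 5 of 18 alternatives, limma-voom and DESeq2 among them, with a range from 0.00563 to 0.312 over 18 alternatives. From ES to HP its log2 difference was -0.38 ± 0.15 (adjusted p = 0.0538), which passed in 9 of the 18 (0.0143 to 0.22). Its fall from HB to HE1 was lost without HE1 replicate 2 or without HB replicate 2 (adjusted p = 0.0524 and 0.0658, the latter the highest of a range from 0.000827). Its rise from HE1 to HP was lost without HE1 replicate 2, HP replicate 1 or HP replicate 2 (adjusted p = 0.0801, 0.0914 and 0.0633) and with only the 4 libraries compared (0.0946, the highest of a range from 0.0018 over 18 alternatives). The summed level of the core genes Ezh1, Ezh2, Eed and Suz12 was 144 ± 1.35 CPM per kb in ES, 109 ± 2.11 at HB, 80.3 ± 5.09 at HE1, 91.4 ± 11.9 at HE2 and 96.1 ± 0.155 at HP (SD, n = 2). Suz12 made up the greatest part of it at every stage, from 46.5% in HE1 to 58.1% in HP, whereas the share of Eed went from 29.9% in ES to 15.8% in HB.

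**Figure D2:**
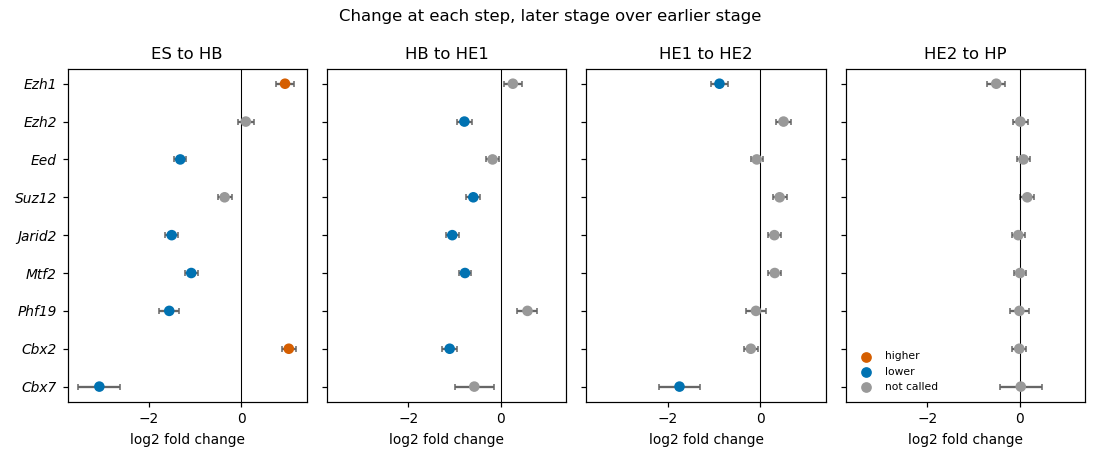
Log2 fold change (x axis, later over earlier stage) of each subunit gene (y axis) at the 4 steps between neighbouring stages, with bars for ± 1 SE and colour for the edgeR call at an adjusted p under 0.05. The widest change was that of Cbx7 from ES to HB (-3.07 ± 0.45), and no gene was called from HE2 to HP.

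Ezh2 and Suz12, like Jarid2 and Mtf2, were lowest where cell cycle genes were lowest. Of 17 cell cycle genes, 11 fell and 1 rose from HB to HE1, where 14.8% of all tested genes were called lower and 17.5% higher, and 15 rose and none fell from HE1 to HP, where 11% were called higher and 13.9% lower. Their summed CPM was 5390 and 5420 in ES, 4800 and 5060 at HB, 3450 and 2500 at HE1, 4270 and 5780 at HE2, and 5550 and 4960 at HP. Among the 6 HE1, HE2 and HP libraries, the 3 with the lowest sums, both HE1 libraries and HE2 replicate 1, also had the 3 lowest values of Ezh2, Suz12, Jarid2 and Mtf2 and the 3 highest of Ezh1. Over all 10 libraries Ezh1 did not keep this order. The HB libraries, with sums of 4800 and 5060, had 87.9 and 85.7 CPM of Ezh1, above the 67.7 of HE2 replicate 1 at a sum of 4270. Jarid2 and Mtf2 did not keep it either. HB had 226 and 230 CPM of Jarid2 and 182 and 182 of Mtf2, above the 147 and 141 of HE2 replicate 2 at a sum of 5780. The part of the cell cycle genes in these differences was not tested.

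**Figure D3:**
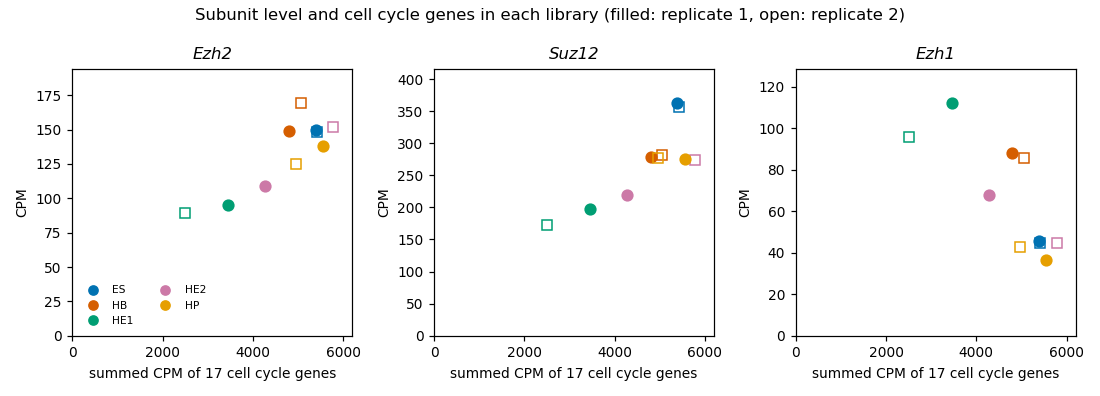
CPM of Ezh2, Suz12 and Ezh1 (y axes, from 0) against the summed CPM of 17 cell cycle genes (x axis) in each of the 10 libraries, with colour for the stage, filled circles for replicate 1 and open squares for replicate 2. The HE1 libraries, with sums of 3450 and 2500, lie lowest for Ezh2 and Suz12 and highest for Ezh1.

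The promoters of genes that moved together or apart are shown for what their letters hold. RefSeq windows from 250 bases before to 50 after a start site (GRCm38.p6, the build of mm10) were matched for 8 of the 9 genes, Cbx2 being the exception. Both strands were searched for 3 motifs: CCAAT, the core of sites bound by NF-Y, GGGCGG, that of sites bound by SP1, and TTTNNCGC. The last, with any base at N, is a loose form of the core bound by E2F factors, which control genes of DNA replication. A gene was counted if any of its windows held the motif, whereas the shares are over single windows and are not matched for CG pairs. CCAAT was held by windows of 6 of the 8 genes, 13 of the 15 cell cycle genes with a window and 37.4% of all windows. For Mtf2 it lay only in the further window given below. GGGCGG was held by windows of 5 of the 8, 14 of the 15 and 35.7%. TTTNNCGC was held by the windows of 3 of the 8 genes, Ezh2, Suz12 and Phf19, by those of 6 of the 15 cell cycle genes with a window, and by 5.17% of all 32851 windows. In Ezh2 the match began at base 4 of the transcript, in Suz12 at base -219, and in Phf19 at bases -208 and -198 on the opposite strand. The match of Phf19 at -198 has T at each N. Stretches are given 5′ to 3′ on the strand of the gene with the matches to TTTNNCGC in capitals, for the 3 genes with a match, for Ezh1 as the counterpart of Ezh2, and for Cbx7 as the gene that changed most.
Ezh2 (chr6:47595009-47595038, minus strand): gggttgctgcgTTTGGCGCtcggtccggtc
Suz12 (chr11:79992856-79993105, plus strand): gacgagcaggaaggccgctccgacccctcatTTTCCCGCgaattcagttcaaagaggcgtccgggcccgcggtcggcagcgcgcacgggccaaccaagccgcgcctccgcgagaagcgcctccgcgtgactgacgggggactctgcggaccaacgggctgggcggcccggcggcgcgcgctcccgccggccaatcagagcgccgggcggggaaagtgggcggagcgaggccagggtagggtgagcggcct
Phf19 (chr2:34914018-34914226, minus strand): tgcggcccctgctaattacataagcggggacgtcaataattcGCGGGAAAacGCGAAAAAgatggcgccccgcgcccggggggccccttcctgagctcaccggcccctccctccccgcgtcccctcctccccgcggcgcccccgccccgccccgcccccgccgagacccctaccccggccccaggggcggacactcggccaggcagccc
Ezh1 (chr11:101226464-101226713, minus strand): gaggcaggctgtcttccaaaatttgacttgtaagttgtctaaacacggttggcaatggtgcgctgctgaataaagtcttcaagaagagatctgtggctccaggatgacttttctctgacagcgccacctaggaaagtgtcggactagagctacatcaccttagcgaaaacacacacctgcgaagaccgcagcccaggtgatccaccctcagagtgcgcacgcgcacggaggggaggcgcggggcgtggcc
Cbx7 (chr15:79932653-79932896, minus strand): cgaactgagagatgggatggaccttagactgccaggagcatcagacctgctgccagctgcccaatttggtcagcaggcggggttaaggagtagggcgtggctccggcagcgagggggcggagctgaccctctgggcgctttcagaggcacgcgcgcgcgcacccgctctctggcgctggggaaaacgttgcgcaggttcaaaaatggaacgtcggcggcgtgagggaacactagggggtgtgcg
The stretch of Ezh2 lies across the start site and covers part of the annotated first exon and UTR, and the others end before the first annotated UTR base. In GENCODE vM21 the far end of the Phf19 stretch overlaps an exon of Gm13448 on the opposite strand, and its near end an exon of a retained-intron transcript of Phf19. The Cbx7 stretch lies within longer Cbx7 transcripts and in part in an exon of a retained-intron transcript of the gene. Ezh2 and Suz12 both fell from HB to HE1 and rose from HE1 to HP. Phf19 holds 2 matches and was called at neither of these steps, and Jarid2 and Mtf2, whose windows hold none, also fell from HB to HE1. A match is a description of the sequence, and binding was not measured here. The number of CG pairs was 23 in the window of Ezh1, 31 in Ezh2, 33 in Cbx7, 38 in Phf19 and 41 in Suz12, 17 to 30 in those of Eed and Jarid2 and the first of Mtf2, and 2 in a further window of Mtf2, against a median of 7 over all windows.

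Jarid2 had the largest fall from ES to HP of the PRC2 genes among the 9, and Jarid2 and Mtf2 both fell from ES to HB and from HB to HE1. Jarid2, on chromosome 13 at 44729474 to 44921643 (plus strand), encodes a catalytically inactive Jumonji protein that joins PRC2 and stimulates it. It had 647 and 651 CPM in ES, 226 and 230 at HB, 111 and 110 at HE1, 125 and 147 at HE2, and 139 and 127 at HP. The ES libraries stood far above the HB libraries, and these above all later ones. Jarid2 fell 2.84-fold from ES to HB (log2 fold change -1.51 ± 0.14, adjusted p = 2.25e-05 in edgeR) and 2.07-fold from HB to HE1 (adjusted p = 0.000425), and was 4.88-fold lower in HP than in ES (adjusted p = 1.05e-06). No difference among HE1, HE2 and HP was called.

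Mtf2, a Polycomb-like subunit that binds unmethylated CG-rich DNA, is on chromosome 5 at 108065674 to 108109004 (plus strand). Its levels were 395 and 378 CPM in ES, 182 and 182 at HB, 109 and 104 at HE1, 123 and 141 at HE2, and 125 and 141 at HP. It fell 2.12-fold from ES to HB (adjusted p = 0.000151) and 1.71-fold from HB to HE1 (adjusted p = 0.00211). Phf19, another Polycomb-like gene, on chromosome 2 at 34893757 to 34914026 (minus strand), was low throughout. It had 18.6 and 19.8 CPM in ES, 6.81 and 6.20 at HB, 10.4 and 8.95 at HE1, 9.54 and 8.60 at HE2, and 10.2 and 7.88 at HP. HB was its lowest stage and not HE1. Phf19 fell 2.95-fold from ES to HB (adjusted p = 0.000276), and its log2 difference of 0.57 ± 0.22 from HB to HE1 (adjusted p = 0.0646, range 0.0406 to 0.305 over 18 alternatives) passed in 3 of these, DESeq2 among them.

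Within the Polycomb-like family the balance stayed with Mtf2. It held 89.8% ± 0.101 of the summed CPM per kb in ES, 83.6% ± 2.98 at HB, 72.5% ± 1.02 at HE1, 81.9% ± 4.63 at HE2 and 79.3% ± 0.645 at HP (SD, n = 2). The share of Phf1, the third Polycomb-like gene, went from 5.12% ± 0.263 in ES to 20.1% ± 1.68 in HE1, with no called change in its own level at any step (8.98 to 20.7 CPM over the 10 libraries). The family sum went from 75.5 ± 2.27 CPM per kb in ES to 25.8 ± 0.486 in HE1. The ratio of Mtf2 to Phf19 was highest in HB (24.7) and lowest in HE1 (9.72), a range of 1.35 on the log2 scale (exact permutation p = 0.0116, adjusted over 4 ratios 0.0296). Jarid2 and Mtf2 were at close levels per kb in ES, with a ratio of 0.985, and the ratio was 0.735 in HB and 0.588 to 0.607 later (range 0.74 on the log2 scale, exact permutation p = 0.0148, adjusted 0.0296).

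**Figure D4:**
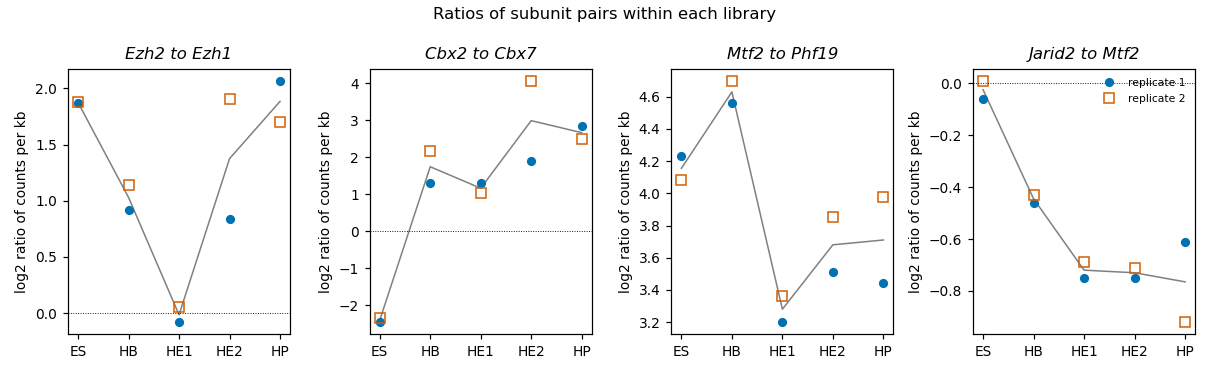
Log2 ratio of the counts per kb of exon (y axis) of 4 pairs of subunit genes within each library at the 5 stages (x axis), with filled circles for replicate 1, open squares for replicate 2, a line through stage means and a dotted line at equal level where it is in range. Ezh2 to Ezh1 dipped to -0.01 in HE1, Cbx2 to Cbx7 went from -2.40 in ES to 1.74 in HB, and Jarid2 to Mtf2 went from -0.02 in ES to -0.77 in HP.

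Of 8 further PRC2 genes tested, 4 fell and none rose from ES to HB (22.6% of all tested genes were called lower and 17.8% higher), 2 rose and 1 fell from HB to HE1 (17.5% higher, 14.8% lower), and 3 fell and none rose from ES to HP (27.5% lower, 24.1% higher). Epop, which links PRC2 to elongin in ES cells, had 287 and 281 CPM in ES, 85.8 and 90.5 in HB, and 21.5 to 37.5 in the other 6 libraries. It fell at both steps where Jarid2 and Mtf2 fell (adjusted p = 0.000625 and 0.00175) and was lower in HP than in ES by a log2 fold change of -3.22 ± 0.28. AU022751, known as Ezhip, an inhibitor of PRC2, had 1.77 and 1.69 CPM in ES and 0 in both HP libraries, so that HP was at least 21.1-fold lower at a floor of 3 counts per library. Lcorl, a PRC2 accessory gene, rose from HB to HE1 (adjusted p = 0.0487) and fell from HE1 to HE2 (0.0413), with 84.8 and 65.9 CPM in HE1. Aebp2, the partner of Jarid2, named here after its values were seen, fell from ES to HB (log2 fold change -0.77 ± 0.15, adjusted p = 0.00187) from 130 and 127 CPM to 73.3 and 78.0.

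The CBX genes showed the widest exchange. Cbx7, on chromosome 15 at 79915807 to 79971119 (minus strand), had 289 and 286 CPM in ES, 42.9 and 25.5 at HB, 21.3 and 24.5 at HE1, 10.8 and 2.89 at HE2, and 6.71 and 7.18 at HP. Every later library was far below both ES libraries. Cbx7 fell 8.41-fold from ES to HB (log2 fold change -3.07 ± 0.45, adjusted p = 0.00039 in edgeR) and 3.36-fold from HE1 to HE2 (-1.75 ± 0.45, adjusted p = 0.0342). From ES to HP it fell 41.4-fold (-5.37 ± 0.51, adjusted p = 1.25e-05). In HE1 replicate 2, with the higher ES markers, Cbx7 was at 8.51% of its ES mean against 7.4% in replicate 1. The call from HE1 to HE2 was lost without that library (log2 fold change -1.64, adjusted p = 0.136), without HE2 replicate 2 (-1.08, adjusted p = 0.0981) and with only the 4 libraries compared (adjusted p = 0.0854), within a range from 4.31e-15 to 0.136 over 18 alternatives. Without HE2 replicate 1 it was larger (-2.97, adjusted p = 0.00044). From HB to HE1 the log2 fold change was -0.57 ± 0.43 (adjusted p = 0.323), which passed only without the filter on low counts. The fall of 3.31-fold from HE1 to HP (adjusted p = 0.0188) was lost without HE1 replicate 2, HP replicate 1 or HP replicate 2 (adjusted p = 0.0831, 0.122 and 0.0678, the range being 2.1e-15 to 0.122). The calls from ES to HB and from ES to HP held in all 18 alternatives.

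Cbx2, a CBX protein that also compacts chromatin, is on chromosome 11 at 119022962 to 119031270 (plus strand). It had 34.6 and 36.9 CPM in ES, 69.7 and 75.7 at HB, 34.5 and 33.0 at HE1, 26.6 and 31.9 at HE2, and 31.6 and 26.5 at HP. Both HB libraries stood above the other 8. Cbx2 rose 2.03-fold from ES to HB (log2 fold change 1.02 ± 0.16, adjusted p = 0.000476 in edgeR) and fell 2.15-fold from HB to HE1 (-1.11 ± 0.16, adjusted p = 0.000575), and both calls held in all 18 alternatives. HP was at a log2 difference of -0.30 ± 0.15 from ES (adjusted p = 0.131).

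Among Cbx2, Cbx6, Cbx7 and Cbx8, canonical CBX genes, Cbx7 held 67.4% ± 0.155 of the summed CPM per kb in ES, 18.6% ± 5.69 at HB, 14.9% ± 0.552 at HE1, 6.69% ± 5.21 at HE2 and 7.3% ± 0.954 at HP (SD, n = 2). Cbx2 was the leading gene of these in HB, at 60.9% ± 6.95, and Cbx6 in HE1, at 44.2% ± 2.08 beside 33.6% ± 3.19 for Cbx2. In HE2 the shares were 45.0% ± 8.23 for Cbx2 and 39.5% ± 4.93 for Cbx6, and in HP they were 46.2% ± 1.86 and 36.9% ± 3.13. The sum of the 4 genes went from 65.8 ± 0.248 CPM per kb in ES to 14.8 ± 1.21 in HP, so that the share of Cbx2 grew on a shrinking sum. The log2 ratio of Cbx2 to Cbx7 was -2.45 and -2.35 in ES, 1.31 and 2.18 at HB, 1.30 and 1.03 at HE1, 1.91 and 4.07 at HE2, and 2.84 and 2.49 at HP. It was below 0 in both ES libraries and above 1 in the other 8 (range of stage means 5.39, exact permutation p = 0.0286, adjusted over 4 ratios 0.0381). The unadjusted exact p was 0.0519 without HE1 replicate 1 and 0.0571 without HE1 replicate 2.

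**Figure D5:**
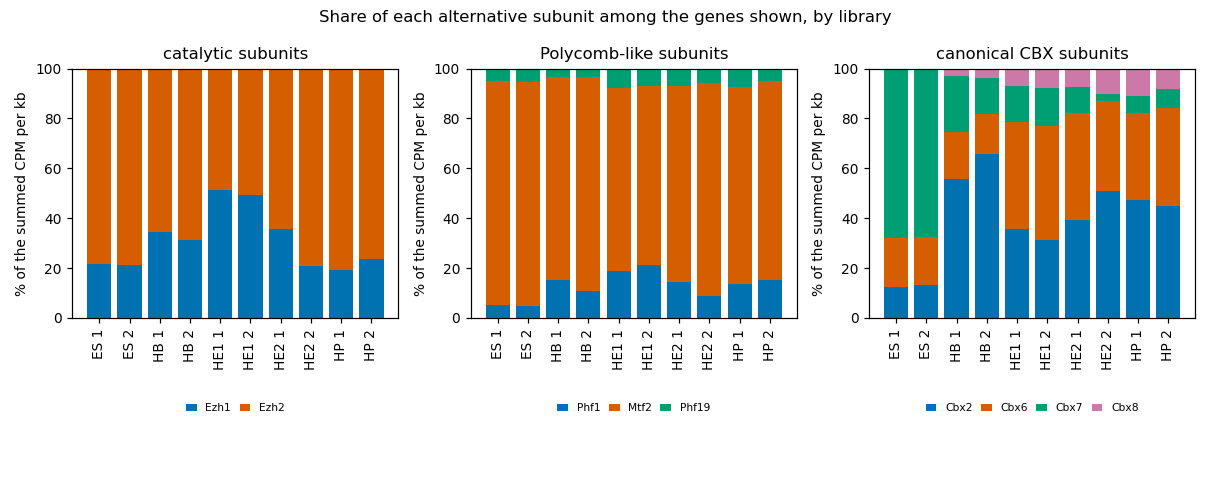
Share of each gene in the summed CPM per kb of the genes of its panel (y axis, %, stacked to 100) in each of the 10 libraries (x axis). The blue part of the left panel, Ezh1, is widest in the HE1 libraries (51.3% and 49.2%), and the green part of the right panel, Cbx7, goes from 67.4% in ES to 7.3% in HP.

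Cbx8 and Cbx6 each followed a course of their own. Cbx8 rose from ES to HB (log2 fold change 1.78 ± 0.34, adjusted p = 0.00202), from 1.08 and 0.889 to 3.21 and 3.63 CPM. Cbx6 fell from ES to HB and rose again from HB to HE1 (1.11 ± 0.17, adjusted p = 0.000925), with 138 and 133, 57.3 and 45.9, and 103 and 120 CPM at these stages. Cbx6 then fell from HE1 to HE2 (adjusted p = 0.0193).

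Of 11 further canonical PRC1 genes, Cbx6 and Cbx8 included, 5 rose and 3 fell from ES to HP, where 24.1% of all tested genes were called higher and 27.5% lower. By step, 3 rose and 2 fell from ES to HB (all genes 17.8% and 22.6%), 4 rose and 2 fell from HB to HE1 (17.5% and 14.8%), and 1 fell from HE1 to HE2 (7.12%). Phc1, a Polyhomeotic protein, also fell, from 514 and 519 CPM in ES to 91.1 and 91.9 in HB and 59.3 to 75.3 later (ES to HP log2 fold change -2.90 ± 0.15, adjusted p = 3.37e-07). Phc2, another Polyhomeotic protein, rose from ES to HB (1.66 ± 0.14, adjusted p = 1.26e-05) and from HB to HE1 (adjusted p = 0.0121), from 30.4 and 31.1 CPM in ES to 151 and 136 in HE1, and had 88.7 and 81.5 in HP. Bmi1 and Pcgf2, alternative PCGF subunits, moved in opposite directions over the whole course. Bmi1 rose from ES to HP (1.18 ± 0.25, adjusted p = 0.00267) from 18.0 and 18.6 to 42.4 and 40.2 CPM, and Pcgf2 fell (-1.07 ± 0.13, adjusted p = 8.71e-05) from 67.9 and 66.8 to 32.2 and 32.1. Bmi1 was at 36.1 CPM in HE1 replicate 1 and at 19.9 in replicate 2.

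Of 14 genes of variant PRC1, which does not need CBX proteins, 5 rose and 5 fell from ES to HP (all genes 24.1% higher and 27.5% lower), 5 rose and 4 fell from ES to HB (17.8% and 22.6%), and 1 rose and 4 fell from HB to HE1 (17.5% and 14.8%). Pcgf5 had 24.0 and 25.7 CPM in ES, 79.0 and 70.9 at HB, 280 and 226 at HE1, 167 and 126 at HE2, and 105 and 123 at HP. It shared with Ezh1 a peak in HE1, but HP stayed above ES (log2 fold change 2.2 ± 0.18, adjusted p = 5.68e-06). Yaf2 rose once, from ES to HB (2.29 ± 0.19, adjusted p = 8.69e-06), from 5.04 and 5.91 CPM to 25.7 and 27.7. Mga, which brings Pcgf6-type PRC1 to DNA, fell from 758 and 795 CPM in ES to 321 and 326 in HB (-1.26 ± 0.18, adjusted p = 0.00032).

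Of 8 genes of the enzymes that remove Polycomb marks and of their partners, 4 rose and 1 fell from ES to HP, against 24.1% of all tested genes called higher and 27.5% lower. Kdm6b, an H3K27 demethylase, rose from 116 ± 3.93 CPM in ES to 345 ± 40.5 in HB (SD, n = 2 libraries, log2 fold change 1.57 ± 0.18, adjusted p = 6.85e-05) and fell in HE1 (adjusted p = 0.0098). Its paralogue Kdm6a was called at no step and lay between 82.0 and 129 CPM in the 10 libraries. Asxl3, a partner of the deubiquitinase BAP1, rose from ES to HB (adjusted p = 0.00014), fell from HB to HE1 (0.000805) and rose again from HE1 to HE2 (0.0131), with 7.79 and 7.26 CPM in ES, 41.2 and 38.2 at HB, 8.29 and 11.6 at HE1, 19.0 and 38.8 at HE2, and 41.3 and 43.8 at HP. Mbd6, which also binds the BAP1 complex, rose from HE1 to HE2 (0.71 ± 0.15, adjusted p = 0.0197).

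Cdkn2a and Cdkn2b, the cell cycle inhibitors that Polycomb is best known to silence, were lowest in HB. Cdkn2a had 10.5 and 12.7 CPM in ES, 1.36 and 2.23 in HB, and 5.50 to 12.3 later, and Cdkn2b had 2.98 and 3.24 in ES, 0.827 and 0.761 in HB, and 3.78 to 12.5 later. Both fell from ES to HB (adjusted p = 0.000244 and 0.00664) and rose from HB to HE1 (0.00385 and 0.00048). Cdkn2b differed between the HE1 libraries, at 5.55 and 12.5 CPM.

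The genes most like 4 of the subunits were sought among 11864 genes with a mean log2 CPM of at least 2, by Pearson's r of log2 CPM over the 10 libraries, which share their stages in pairs. Efnb2 (r = 0.987), Plekhh3 (0.980) and Cttnbp2 (0.979) were most like Ezh1. Plekhh3 lies 19.8 kb from Ezh1, on the same chromosome and strand. Pum3 (0.996), Serbp1 (0.994) and Tomm70a (0.984) were most like Ezh2, Vrtn (0.971), Gga2 (0.970) and Zfp512 (0.968) most like Cbx2, and Ltbp4 (0.990), Aplp1 (0.989) and Prkcz (0.988) most like Cbx7. Among the 9 genes themselves, Jarid2 with Mtf2 (0.99) and Eed with each of them (0.96) were most alike, and Ezh1 had negative values against 6 of the other 8, from -0.67 with Suz12 to 0.46 with Cbx2.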

How the data were processed

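Nuclear RNA-seq libraries of 5 stages were analysed, 2 per stage. The authors removed rRNA reads (RiboDetector), trimmed (Trimmomatic), aligned to mm10 (HISAT2 v2.2.1) and made the deposited counts with featureCounts, on Ensembl exons, strand-specific, with a read pair that overlapped several genes counted on each. The authors also deposited a matrix of 1 normalized mean score per gene and stage, made with edgeR (v3.40.2) and limma, used here only to find the genes by name.

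Counts were fitted with edgeR (v4.0.16, R v4.3.3): filterByExpr on stage, TMM (factors 0.954 to 1.132), a quasi-likelihood fit of all 10 libraries with no term but stage (5 residual degrees of freedom), and Benjamini-Hochberg adjustment over the 22596 genes left. An adjusted p under 0.05 made a call. CPM used TMM library sizes, on which 3 counts are 0.0532 to 0.126 CPM (counting error only). CPM per kb divided by exon length. Ratios added 0.5 counts and were tested two-sided by exact permutation of the one-way F statistic over stages. The scripts were tested on simulated data. Alternatives were limma-voom (v3.58.1), also on the genes of the matrix only, DESeq2 (v1.42.0), total counts, library sizes without the top 20 genes, no filter, only the 4 libraries compared, a replicate block, and each library left out in turn. No 2 libraries had identical counts. Exons of Eed, Mtf2 and Cbx7 overlap genes of the opposite strand, which strand-specific counting separates.

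The subunit genes and all lists were chosen with earlier results of these data known. Named beside the 9 genes were the 3 largest called changes of each other Polycomb list, direct paralogues, Cdkn2a, Cdkn2b and the 3 genes most like Ezh1, Ezh2, Cbx2 and Cbx7. An item of the lists is not reported here and was left out of their counts and shares.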

Additional observations from a re-analysis of the deposited data

How the results depend on the processing

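Of 54 values, the 9 genes in 6 comparisons, 23 were called. No called value changed direction in the 18 alternatives run for it, 17 kept their call in all of them, and 6 lost it in at least 1 (Suz12 from HB to HE1 and from HE1 to HP, Ezh1 and Cbx7 from HE1 to HE2, and Ezh2 and Cbx7 from HE1 to HP). Of the 31 values not called, 7 were called in at least 1 alternative and 11 changed sign in at least 1. Over all genes, the calls from HE1 to HE2 were 1384 higher and 1608 lower of 22596. Both directions together were 4623 in DESeq2 and 544 of 18939 with only the 4 libraries compared. From HE1 to HP they were 2495 higher and 3142 lower, and 3870 of 19245 with only the 4 libraries compared. The number of the 9 genes called from HE1 to HE2 was 2 and became 4 in DESeq2 and 0 with only the 4 libraries compared. It was 0 without HE2 replicate 2, 4 without HE2 replicate 1 and 1 without HE1 replicate 2. From HE1 to HP it was 4 and became 2 with only the 4 libraries compared and 1 to 4 when a library was left out (1 without HE1 replicate 2, HP replicate 1 or HP replicate 2). From HE2 to HP it went from 0 to 1 without HE2 replicate 2, where Ezh1 was called. For the other counts the alternatives stayed within 1.5 times. With each library left out, the range of stage means of the log2 ratios lay between 1.843 and 2.089 for Ezh2 to Ezh1, between 5.066 and 6.468 for Cbx2 to Cbx7 and between 0.709 and 0.9 for Jarid2 to Mtf2. The exact permutation p was above 0.05 in 7 of these 10 cases for Ezh2 to Ezh1 (the highest 0.104, without HE1 replicate 1), in 2 for Cbx2 to Cbx7 (0.0571, without HE1 replicate 2) and in 1 for Jarid2 to Mtf2 (0.0519, without HB replicate 2). Mtf2 to Phf19 stayed under 0.05 throughout.

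Small differences that were not called changed sign. From HE2 to HP, Jarid2 became 0.006 when limma-voom used the genes of the matrix alone and 0.03 with total counts, Phf19 0.002 with limma-voom, 0.039 with limma-voom and the matrix genes alone and 0.047 with total counts, Cbx2 0.033 and 0.049 in the last 2 of these, and Mtf2 -0.004 with only the 4 libraries compared. From HE1 to HP, Eed became -0.05 when limma-voom used the genes of the matrix alone, -0.006 in DESeq2, -0.033 with total counts and -0.043 with only the 4 libraries compared. With a library left out, the values from HE2 to HP lay between -0.209 and 0.274 for Ezh2, -0.046 and 0.217 for Eed, -0.148 and 0.095 for Jarid2, -0.09 and 0.107 for Mtf2, -0.204 and 0.164 for Phf19, -0.144 and 0.13 for Cbx2, and -0.629 and 1.261 for Cbx7. From HE1 to HE2 they lay between -0.196 and 0.067 for Eed and between -0.203 and 0.044 for Phf19, and from HE1 to HP between -0.022 and 0.064 for Eed and between -0.281 and 0.086 for Phf19. The causes were not tested.

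The deviations of same-numbered libraries correlated at -0.316 to 0.213 over the 10 pairs of stages. They were positive for HB with HE2 (0.213) and HE1 with HP (0.133), and between -0.316 and -0.179 for the other pairs without ES. With ES they were -0.026 to -0.003. A negative value means that differently numbered libraries deviated together, which a block on the numbers cannot take up. Whether libraries of different stages share a culture was not tested. A fit with a replicate block called 3 genes in place of 4 from HE1 to HP, losing Ezh2 (log2 fold change 0.515, adjusted p = 0.0684 in edgeR), and changed no other call of the 9 genes. With 2 libraries per stage, differences of about the size of that of Ezh2 from HE1 to HP lie at the limit of the test, and Phf19 or Cbx7 has the fewest counts of the 9 genes in each library. A library left out leaves its stage with 1 library, which is then assumed to vary like the other stages. RNA in the nucleus was measured, and protein was not.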
